A study of Schizosaccharomyces pombe with 144 samples.

Results

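The autophagy genes of fission yeast (Schizosaccharomyces pombe) that carry an atg symbol were followed through synchronous meiosis and spore formation. They were taken as every row of the gene table named atg followed by digits and at most 1 letter, which gave 24 of 5157 genes. All 24 passed the filter of 5 RPKM in at least 1 library of each comparison. RPKM, the unit of all levels given here, divides a gene's reads by its length and by the depth of its library, so levels of different genes can be compared per length.

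Autophagy is the breakdown of a cell's own cytoplasm inside the vacuole. The Atg1 kinase complex starts it, a phosphatidylinositol 3-kinase complex and the Atg9, Atg2 and Atg18 proteins build the enclosing membrane, and a pair of ubiquitin-like proteins, Atg8 and Atg12, are attached to their targets by enzymes that resemble those of ubiquitination. Atg8 is coupled to a lipid of the growing membrane and part of it is carried into the vacuole. In yeasts autophagy is induced when nitrogen runs out, the same signal that leads fission yeast to mate and sporulate, and the amino acids it releases are used for new protein synthesis.

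Total RNA was sequenced in 10 libraries, 1 per stage: growing cells, called mitosis here, and 0 h to 8 h of meiosis at intervals of 1 h. The strain is SPB2819, with wild-type clr4, and all 10 libraries share its genotype, controls included. It is an h-/h- diploid with ade6-M210/ade6-M216, in which both copies of pat1 are deleted (NatR) and replaced in function by pat1-as(L95A) marked with HygR, also on both copies. Pat1 is the kinase that holds cells out of meiosis, and an analog-sensitive form can be switched off with a bulky inhibitor. The strain also carries lys1::MatPc-Bleo, which supplies the mating-type information that an h-/h- diploid lacks, and a lacO array near cen2 with his7+::lacI-GFP. It is therefore a model of meiosis forced by loss of 1 kinase, in a diploid that has not mated. The labels give exponential growth in YES medium for the cultures in general and do not give the medium or inhibitor of the meiotic course. In protocols of this kind cells are commonly starved of nitrogen before 0 h, which the labels neither state nor exclude.

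With 1 library per stage no difference has a replicate check, and no p-value is given. A gene is said to have risen or fallen only by a rule of size, 4-fold or more on the log2(RPKM + 1) scale (2 or more, which understates the change of low genes). Levels were scaled to between 14998460 reads (6 h) and 20734255 reads (mitosis), and the atg genes had 180 to 26156 reads each, so counting error is small beside changes of that size. The intervals below are 95% and cover counting error only, not the difference between cultures. The median change of all genes was 0.54 from mitosis to 0 h, and the median changes from 0 h to 6 h, 7 h and 8 h were -0.72, -0.81 and -0.49. Counts are therefore also given after each library was rescaled by its median ratio over genes. The highest values of the stage markers came in the order of the stages they mark. The differentiation factor gene ste11 stood at 9.01 RPKM in mitosis and 207 by 0 h, the meiotic cohesin gene rec8 was highest at 3 h (248), the middle meiosis factor gene mei4 at 5 h (347), the division and forespore genes spo6 and meu14 at 6 h (2549 and 2225), and the spore coat gene isp3 at 8 h (134840). All of these markers had already passed the size rule at 0 h against mitosis, as deposited and after rescaling. From mitosis to 0 h rec8 went from 2.671 to 222 RPKM, near its highest value, and mei4 from 7.767 to 88.8 RPKM. Over the same step spo6 went from 3.297 to 111 RPKM, meu14 from 4.295 to 48.8 RPKM and isp3 from 91.23 to 6766 RPKM. The 0 h library, the reference within the course, thus already held raised marker RNA. In bulk RNA, fewer cells that express a gene and less RNA per cell cannot be told apart.

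The first comparison asks how the autophagy genes stood at the start of the course against growing cells. All 24 genes were above their mitosis level at 0 h in each of the 3 scalings tried, against 71.4% of all 4939 genes tested as deposited. By the size rule 8 of 24 rose and 0 fell, where 9.29% of all genes rose and 3.62% fell. After rescaling 3 of 24 rose, against 5.93% of all genes. The median change of the atg genes was 1.86, and 1.36 after rescaling, where all genes had 0.54 and 0.03.

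In growing cells the atg genes lay between 4.53 RPKM for atg2 and 47.2 RPKM for atg24, with a median of 15.5 RPKM, where all genes had a median of 31.7 RPKM. At 0 h they lay between 14.9 and 233 RPKM, with a median of 64.2 RPKM against 48.9 RPKM for all genes. Together they made up 0.0548% of the summed RPKM of all genes in mitosis and 0.284% at 0 h.

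The gene furthest above growing cells was atg22, whose budding yeast namesake exports amino acids from the vacuole. It rose from 12.7 to 113 RPKM, 8.92-fold (8.16 to 9.76). Next came atg7, the activating enzyme shared by Atg8 and Atg12, from 19.2 to 148 RPKM, 7.71-fold (7.19 to 8.28). The gene atg1801, of the Atg18 family of phosphoinositide-binding proteins, rose from 15.5 to 95.2 RPKM, 6.16-fold (5.56 to 6.83). These 3 also passed 4-fold after rescaling.

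The ubiquitin-like gene atg8 rose from 41.3 to 233 RPKM, 5.64-fold (5.23 to 6.09), a change of 2.47 that became 1.96 after rescaling. The sorting nexin gene atg20, the kinase gene atg1 and the vacuolar lipase gene atg15 rose 5.22-fold, 4.93-fold and 4.41-fold, and atg13, a regulatory subunit of the kinase, rose 4.32-fold. All 4 were under the rule after rescaling. The genes atg4 and atg1802 stood just under it as deposited, with changes of 1.96 and 1.98. At the other end were the scaffold gene atg11, with 33.8 RPKM in mitosis and 63.9 RPKM at 0 h (1.89-fold, 1.80 to 1.99), and atg16, with 18.4 and 37.6 RPKM.

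**Figure D1:**
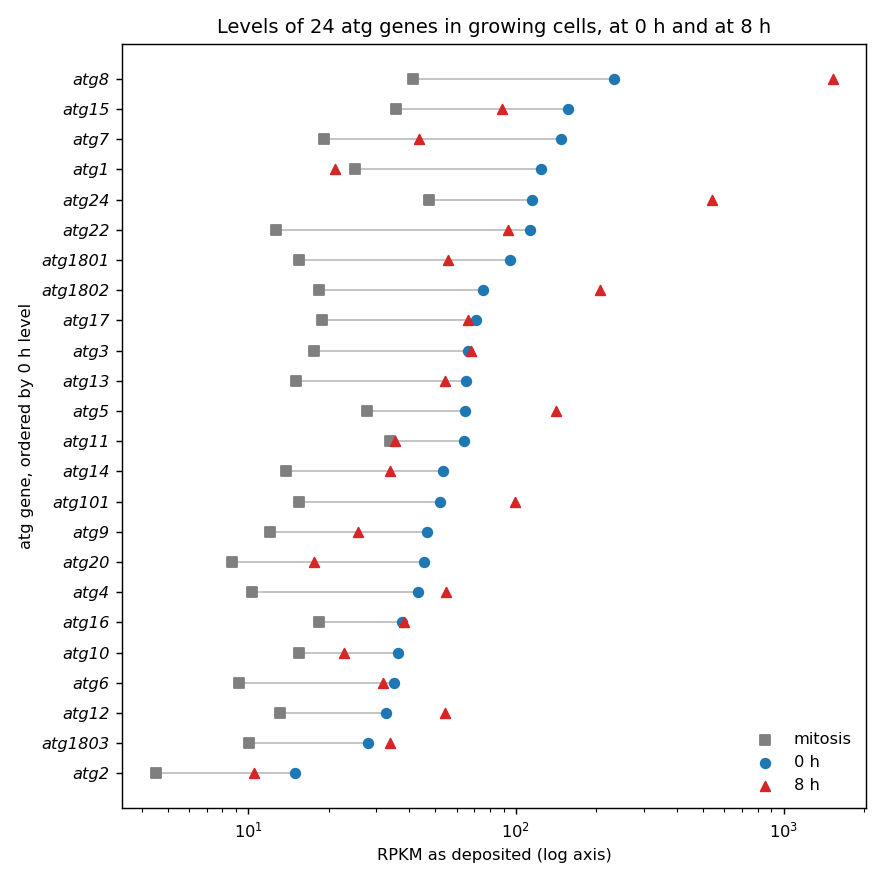
RPKM as deposited (log axis) of the 24 atg genes in mitosis (grey squares), at 0 h (blue circles) and at 8 h (red triangles), 1 library each, ordered by the 0 h level. Every 0 h circle lies to the right of its mitosis square, while the 8 h triangles lie on both sides of the circles, from 10.5 RPKM for atg2 to 1526 RPKM for atg8.

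Within the course the 24 genes parted. Against 0 h, 2 of 24 rose 4-fold or more at some hour, atg8 and atg24, and 3 fell, atg1, atg7 and atg20. Among all 5004 genes tested 7.79% rose and 13.5% fell, so these shares are near those of all genes. After rescaling 4 rose, with atg101 and atg1802 added, and only atg1 fell, against 11.8% and 4.82% of all genes. No atg gene passed the rule from 1 h to 4 h. Over these hours in turn 1.31%, 1.17%, 0.688% and 1.90% of all genes had risen, and 1.19%, 1.88%, 1.48% and 1.94% had fallen.

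At 6 h atg8 alone had risen and the 3 genes above had fallen, where 4.20% of all genes had risen and 10.7% fallen. At 8 h atg8 and atg24 were higher and atg1 lower, where the shares of all genes were 4.00% and 4.77%. The atg genes had a median change of -0.30 by 6 h and -0.19 by 8 h, above the all-gene medians given earlier. After rescaling these medians were 0.44 and 0.35. At 8 h 10 of 24 genes were above 0 h by any amount, where 29.5% of all genes were, and after rescaling 15 of 24, where 52.1% were. There were 8 genes above and 9 below in each of the 3 scalings, and the direction of the other 7 (atg2, atg3, atg6, atg13, atg16, atg17 and atg22) depended on the scaling.

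**Figure D2:**
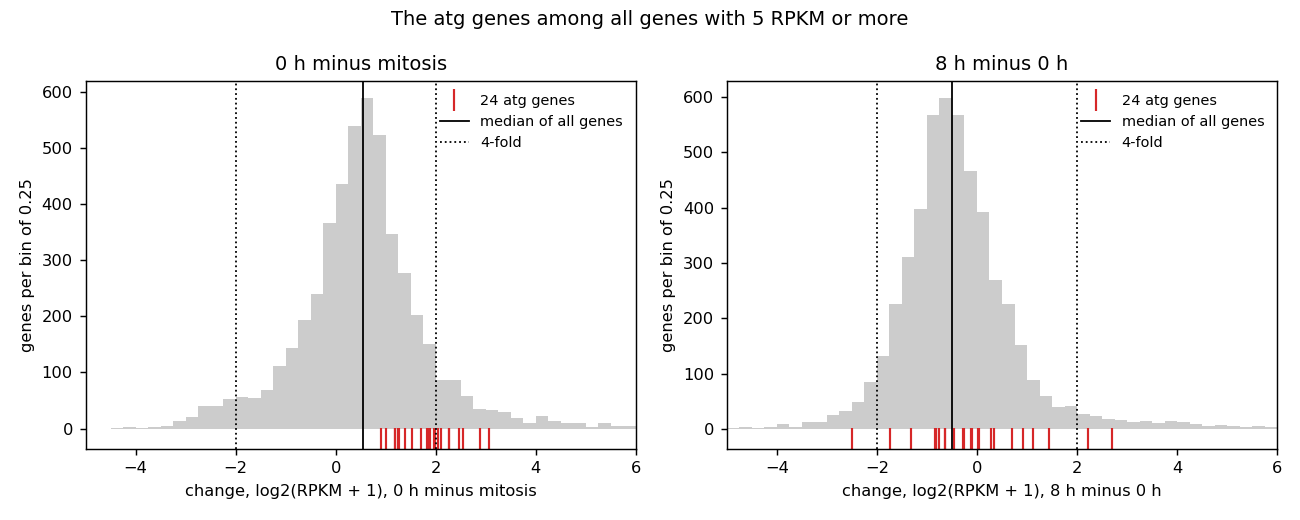
Histograms of the change of all tested genes, log2(RPKM + 1), from mitosis to 0 h (left) and from 0 h to 8 h (right), 1 library each, with the 24 atg genes as red ticks, the median of all genes as a solid line and 4-fold as dotted lines. On the left every tick lies to the right of the all-gene median of 0.54. On the right the ticks run from -2.50 (atg1) to 2.71 (atg8).

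**Figure D3:**
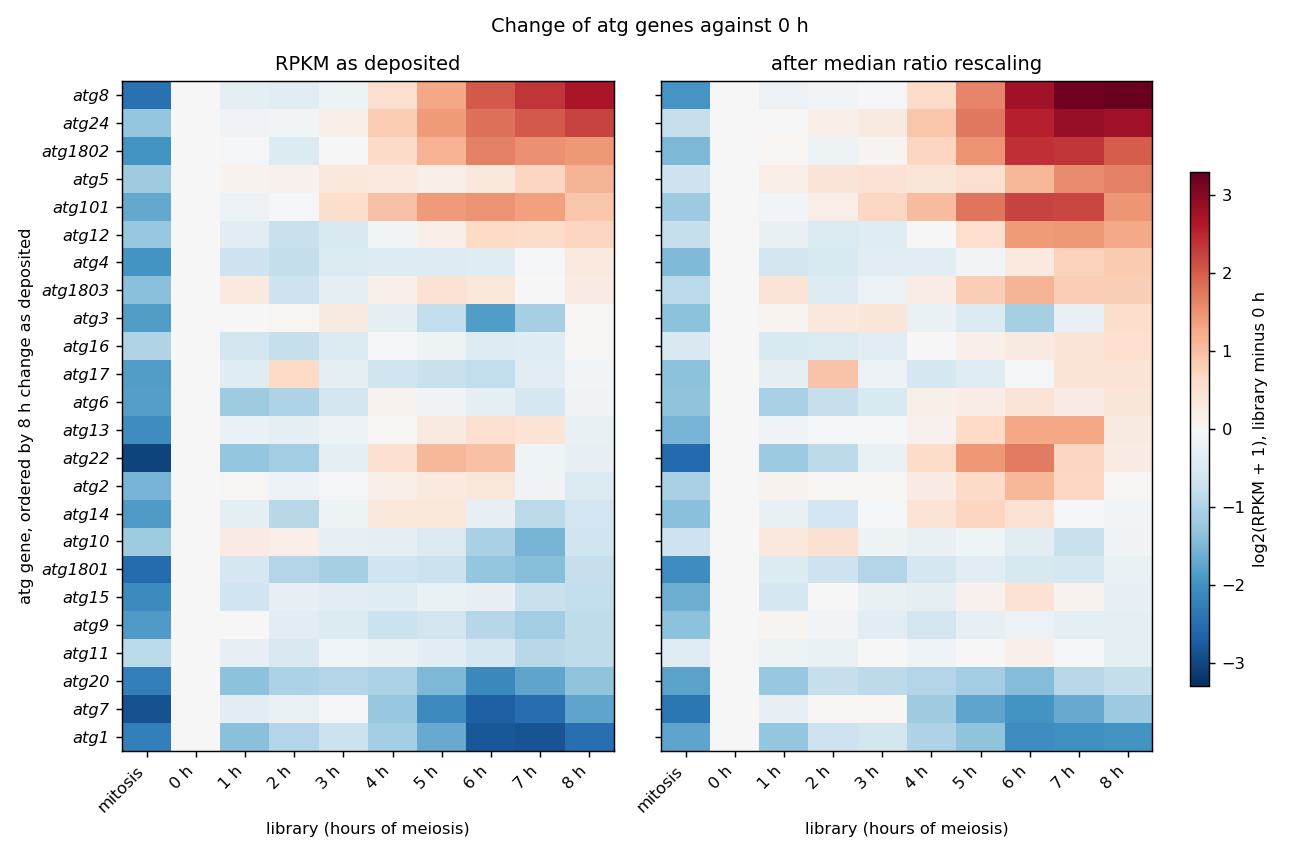
Change of each atg gene against 0 h in every library, log2(RPKM + 1), red above and blue below 0 h, as deposited (left) and after median ratio rescaling (right), with genes ordered by the 8 h change as deposited. The mitosis column is blue throughout, atg8, atg24, atg1802 and atg101 are red at each hour from 4 h in both panels, and atg1, atg7 and atg20 are blue from 4 h in both.

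The Atg8 and Atg12 conjugation system held both the highest gene and one of those that fell. The gene atg8 read 41.3 RPKM in mitosis and, hour by hour from 0 h to 8 h, 233, 188, 180.2, 208, 335, 561, 949, 1204 and 1526 RPKM. It was level or slightly lower until 3 h and then higher at each hour than at the one before. Its level at 8 h was 6.55-fold (6.34 to 6.76) that at 0 h and 36.9-fold (34.4 to 39.7) that in mitosis. After rescaling its change against 0 h at 8 h was 3.26.

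The gene atg7, which encodes the enzyme that activates Atg8, read 148, 113, 126 and 144 RPKM in the libraries of 0 h to 3 h and 61.4, 33.8, 21.9, 25.1 and 43.5 RPKM in those of 4 h to 8 h. It stayed near its 0 h level until 3 h and dropped between 3 h and 4 h, the largest downward step between successive hours from 1 h on among the 24 genes (-1.22). At 6 h it was 6.74-fold (6.24 to 7.28) lower than at 0 h. After rescaling this change was -1.96, just under the rule.

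The conjugating enzyme gene atg3, which passes Atg8 on to the lipid, took a course of the same shape until 6 h and then returned. Its levels from 0 h to 8 h were 66.0, 66.2, 68.9, 80.7, 53.4, 36.9, 17.7, 30.6 and 67.7 RPKM. Its change of -1.84 at 6 h (-1.11 after rescaling) was under the rule. The gene atg4, the protease that trims Atg8 and releases it from the lipid, began at 43.1 RPKM, kept between 24.7 and 32.2 RPKM from 1 h to 6 h, and ended with 40.8 and 54.6 RPKM in the last pair of libraries.

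Ratios between genes within a library do not depend on the scaling of the library. The pairs given here were chosen after values of these data were seen. The level of atg8 over that of atg7 was 2.16 in mitosis and 1.58, 1.66, 1.43 and 1.44 from 0 h to 3 h. It then went to 5.45, 16.6, 43.3, 47.9 and 35.1 from 4 h to 8 h, with an interval of 40.2 to 46.7 for the 6 h value. At 0 h, 6 h and 8 h the ratio of atg8 to atg3 was 3.53, 53.5 and 22.5, and that of atg8 to atg4 was 5.40, 29.5 and 27.9. RNA of the ubiquitin-like protein and RNA of its enzymes thus stood in widely different proportions before 4 h and from 5 h on.

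The Atg12 branch moved less. Atg12 is joined to Atg5, and with Atg16 the pair directs Atg8 to its membrane. The gene atg12 started the course at 32.8 RPKM, was lowest after 2 h (19.2 RPKM) and ended it with 54.2 RPKM. The gene atg5 started with 64.5 RPKM, lay between 69.7 and 83.9 RPKM from 1 h to 6 h, and ended with 107 and 142 RPKM. The atg5 change of 1.12 at 8 h (1.67 after rescaling) was under the rule.

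The gene atg16 lay between 21.8 (2 h) and 38.3 RPKM (8 h) over the course. The gene atg10, the conjugating enzyme of Atg12, had 36.3 and 43.6 RPKM in the first pair of libraries of the course and 11.9 and 22.8 RPKM in the last pair. The ratio of atg12 to atg10 was 0.91 initially, had a minimum of 0.45 after 2 h and a maximum of 4.26 (3.68 to 4.96) after 7 h, and ended at 2.38. In both branches the ubiquitin-like gene was thus higher relative to its conjugating enzyme at 7 h than at 0 h, beyond counting error.

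**Figure D4:**
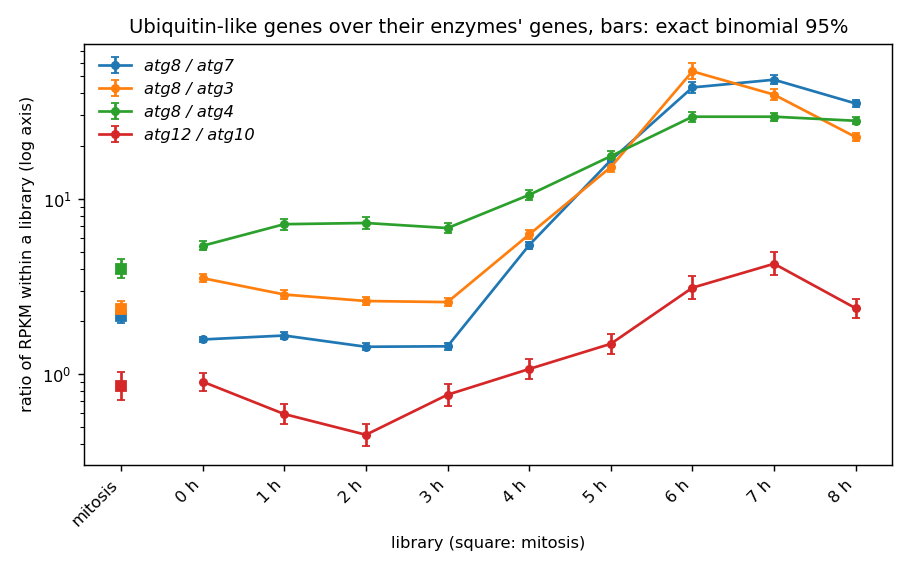
Ratio of RPKM within each library (log axis) of atg8 to atg7, atg3 and atg4, and of atg12 to atg10, in mitosis (squares) and from 0 h to 8 h (circles), with exact binomial 95% intervals for counting error. The atg8 ratios lie between 1.43 and 7.29 from 0 h to 3 h and between 22.5 and 53.5 from 6 h to 8 h.

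The subunits of the Atg1 kinase complex did not move together. The kinase gene atg1 read 25.1 RPKM in mitosis and 124, 46.9, 62.8, 75.4, 56.6, 38.2, 17.0, 16.4 and 21.0 RPKM in the successive hours from 0 h. It was highest at 0 h, and from 6 h on it stood below its level in growing cells. At 7 h it was 7.54-fold (7.04 to 8.07) lower than at 0 h, a change of -2.84, and -2.01 after rescaling.

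The gene atg101, whose product binds Atg13, read 15.4 RPKM in mitosis and then, from 0 h on, 52.2, 45.4, 50.6, 78.0, 103, 141, 148, 136 and 99.5 RPKM. It was highest where atg1 was near its lowest. Its change of 1.48 at 6 h was under the rule and passed it after rescaling, at 2.23. The gene atg13 lay between 51.9 RPKM (2 h) and 95.1 RPKM (6 h), with 65.0 RPKM as its starting and 54.5 RPKM as its final level.

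The scaffold genes took other courses again. The gene atg17 had 70.9, 53.5, 112 and 57.7 RPKM in the first 4 libraries of the course and between 40.2 and 66.3 RPKM from 4 h to 8 h, so its highest value rests on the 2 h library alone. The gene atg11, whose product activates Atg1 in fission yeast, had 63.9 RPKM at the start and 33.7 RPKM after 7 h. The ratio of atg101 to atg1 went from 0.42 to 8.71 between 0 h and 6 h, and that of atg13 to atg1 from 0.53 to 5.60.

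Of the phosphatidylinositol 3-kinase complex, atg6 and atg14 were low at 1 h or 2 h and higher in mid-course. Its subunit gene atg38, given further below, was instead highest at 1 h, with 175 RPKM. The gene atg6, the homologue of mammalian beclin, had 35.1 RPKM at the start, its lowest level of 15.1 RPKM after 1 h and its highest of 38.0 RPKM after 4 h. The gene atg14, the subunit that directs the complex to autophagy, went from 53.4 RPKM to 27.7 RPKM (2 h), held 69.3 and 69.5 RPKM in the libraries of 4 h and 5 h, and had 28.5 RPKM by 7 h. Neither passed the rule at any hour.

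Among genes of membrane supply, the 3 members of the Atg18 family differed. The gene atg1802 read 18.4 RPKM in mitosis and, in order from 0 h to 8 h, 75.4, 74.1, 55.0, 74.4, 118, 168, 239.9, 217 and 207 RPKM. Its change was 1.66 at 6 h and 2.41 after rescaling, past the rule in the latter scaling alone. The gene atg1801 was highest at 0 h, with 95.2 RPKM, and between 35.2 RPKM (7 h) and 64.4 RPKM (1 h) at the later hours.

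The gene atg1803 lay between 16.9 (2 h) and 39.1 RPKM (5 h). The ratio of atg1802 to atg1801 was 1.19 in mitosis and 0.79 at 0 h. It was 1.15 after 1 h, 1.14 after 2 h, 1.97 after 4 h and 6.20 after 6 h. In this pair atg1801 was thus the higher gene in the 0 h library alone. The membrane protein gene atg9 was highest at 0 h (46.4 RPKM) and read 20.5 RPKM at 7 h, below 0 h at 8 h in each scaling. The lipid transfer gene atg2 had low levels throughout, between 10.5 (8 h) and 19.7 RPKM (6 h) over the course.

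The sorting nexin genes atg24 and atg20 went opposite ways. The gene atg24 read 47.2 RPKM in mitosis and 115, 107, 108, 131, 206, 306, 407, 473 and 542 RPKM from 0 h to 8 h, the last being 4.70-fold (4.54 to 4.86) its 0 h level. The gene atg20 read 8.67 RPKM in mitosis and 45.3, 17.1, 21.4, 22.7, 21.4, 15.5, 9.51, 12.8 and 17.6 RPKM over the same hours. Its fall at 6 h, 4.76-fold (4.22 to 5.38), was -1.42 on the log2 scale after rescaling, under the rule. The ratio of atg24 to atg20 was 2.55 at 0 h and 42.8 (38.2 to 48.0) at 6 h.

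**Figure D5:**
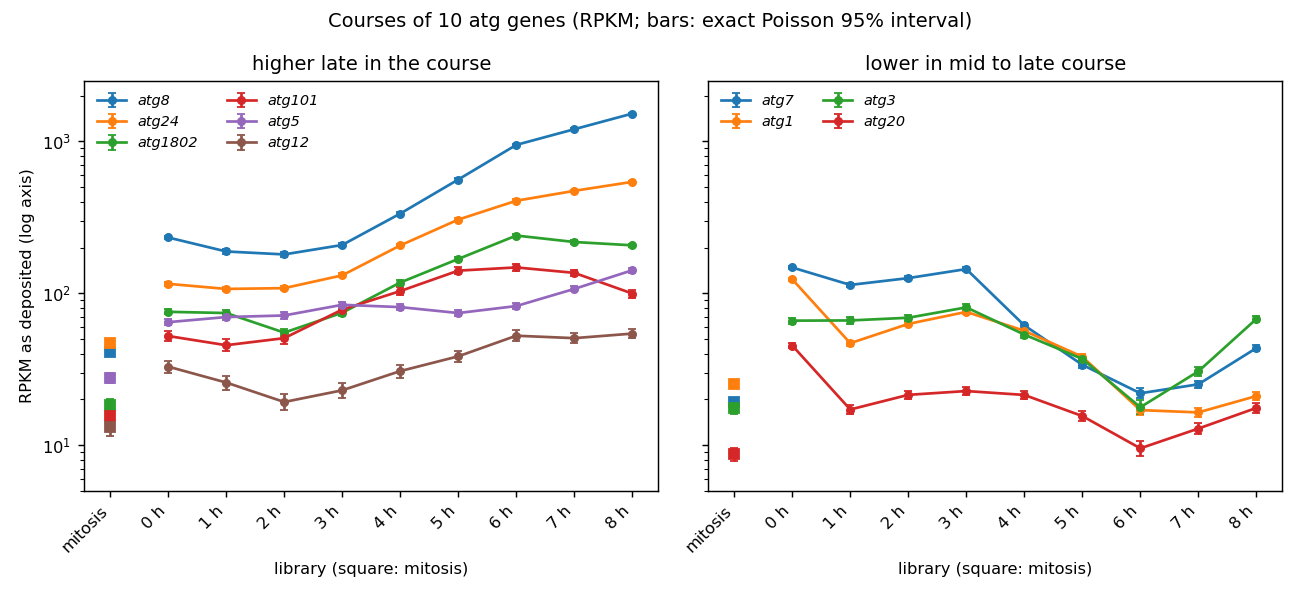
RPKM as deposited (log axis) of 6 atg genes that were higher at 8 h than at 0 h (left) and of 4 with low values at 6 h (right), in mitosis (squares) and from 0 h to 8 h (circles), with exact Poisson 95% intervals for counting error, often smaller than the points. From 3 h to 6 h atg8 goes from 208 to 949 RPKM and atg7 from 144 to 21.9 RPKM.

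In the vacuole, atg22 was low after 0 h and high in mid-course. Its levels by hour were 113, 45.8, 50.6, 90.7, 162, 241, 222, 103 and 93.2 RPKM. The lipase gene atg15 kept between 89.0 (8 h) and 157 RPKM (0 h). The ratio of atg22 to atg15 was 0.39 at 2 h and 1.78 at 5 h.

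The hours of the highest value show the same spread. The highest RPKM of the course fell at 0 h for 7 genes (atg1, atg7, atg9, atg11, atg15, atg20 and atg1801), where 23.9% of all genes were highest, at 6 h for 4 (8.15% of all genes) and at 8 h for 6 (10.8%). After rescaling 3 genes were highest at 0 h, 9 at 6 h and 5 at 8 h, against 13.5%, 19.2% and 16.5% of all genes. Over the 9 hours the log2(RPKM + 1) values of atg8 and atg24 had a Pearson correlation of 0.99, atg24 and atg1802 of 0.97, and atg7 and atg1802 of -0.96. These pairs were picked as extremes among all pairs of the 24 genes. Other pairs lay near 0, such as atg1 and atg2 at 0.0029. The points share their libraries and the scaling of each, and successive hours are not independent.

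From 0 h on atg8 was the highest of the group, and by 8 h its share of the summed RPKM had grown. The summed RPKM of the 24 genes in mitosis, 0 h and 8 h was 459, 1816 and 3366, and atg8 made up 8.99%, 12.8% and 45.3% of it. Without atg8 the sum was 1583 at 0 h and 1840.0 at 8 h, of which atg24 made up 115 and 542 RPKM. Against growing cells 7 of 24 genes were 4-fold or more higher at 8 h (atg4, atg5, atg8, atg22, atg24, atg101 and atg1802) and 0 lower, where 9.77% of all genes were higher and 4.26% lower. After rescaling atg12 was added, and 10.1% of all genes were higher. The other 23 genes were above their mitosis level at 8 h, where 47.7% of all genes were (49.0% after rescaling), and atg1 was below it in each of the 3 scalings (-0.24 as deposited). Of the 23, atg11 was barely above, with 33.8 RPKM in mitosis (32.4 to 35.2) and 35.3 RPKM at 8 h (33.8 to 36.8). Its counting intervals overlap.

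Names of the mug series were given to genes for raised expression in meiosis, and 5 of the 24 genes have one as a synonym: atg2 (mug36), atg5 (mug77), atg13 (mug78), atg101 (mug66) and atg1802 (mug179). In the reference annotation 177 genes have a mug name as symbol or synonym. The split of the 24 genes by such a synonym was made after values of these data were seen. As deposited, the number of the 5 above 0 h was 2, 1, 2, 5, 5, 5, 4 and 3 at the hours from 1 h to 8 h, and of the other 19 genes 3, 3, 2, 6, 6, 5, 3 and 7. The share of all genes was 46.0%, 33.0%, 47.2%, 46.1%, 34.1%, 27.0%, 22.4% and 29.5%. At 6 h all 5 were above 0 h in both scalings, with a median change of 0.54 (1.29 after rescaling), and of the other 19 genes 5 were above 0 h (11 after rescaling), with a median of -0.43 (0.30). After rescaling 50.5% of all genes were above 0 h at 6 h. At 8 h the lowest of the 5 was atg2, at -0.47 as deposited. Neither atg8 nor atg24 has such a synonym.

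Another 4 genes with an atg name in the reference annotation stand in the table under systematic IDs and are not counted above. The mitophagy receptor gene atg43 rose at 0 h, from 18.0 RPKM in mitosis to 112 RPKM, also after rescaling, and had 65.8 RPKM by 4 h and 123 RPKM by 8 h. The sorting nexin gene atg2402 rose from 5.57 to 34.8 RPKM at 0 h as deposited (2.45) and was under the rule after rescaling (1.97). It read 84.5 RPKM at 8 h, a change of 1.26 against 0 h (1.80 after rescaling), the same side as atg24 and opposite to atg20. The gene atg38, a subunit of the phosphatidylinositol 3-kinase complex, read 58.6, 116 and 122 RPKM in mitosis, at 0 h and at 8 h, and the mitochondrial fission gene atg44 read 95.2, 189 and 171 RPKM.

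Genes that work with the atg genes under other names were also listed, with earlier results of these data known. Of 9 listed partners in the table (a list that includes the row of atg44), 2 rose at 0 h against mitosis, and 0 after rescaling, where 9.29% and 5.93% of all genes did. These were ctl1, whose product binds Atg9, and vps15, the regulatory subunit of the phosphatidylinositol 3-kinase. In mitosis, 0 h and 8 h the gene vps15 (listed as ppk19) read 7.42, 38.0 and 13.0 RPKM. The gene ctl1 changed by 2.37 between mitosis and 0 h, and went from 85.9 RPKM to 292 RPKM between 0 h and 8 h. Within the course 1 of 9 rose, and 3 after rescaling, where 7.79% and 11.8% of all genes did. The one as deposited was epr1 (listed as mug185), a receptor for autophagy of the endoplasmic reticulum, with 14.3 RPKM at 0 h and 84.5 RPKM at 8 h. Those added after rescaling were ykt6 (2.71 at 6 h) and ctl1 (2.30 at 8 h).

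Of 7 vacuolar hydrolase genes, 3 rose at 0 h (1 after rescaling), and within the course 0 rose and 1 fell, or 2 and 1 after rescaling. The shares of all genes were 9.29% (5.93% after rescaling) at 0 h, and within the course 7.79% and 13.5%, or 11.8% and 4.82% after rescaling, so with 7 genes the counts within the course are near those of all genes. The serine protease gene isp6 went from 54.4 RPKM in mitosis to 2189 RPKM by 0 h and 476 RPKM by 8 h. The protease gene psp3 read 68.9, 321 and, at 6 h, 604 RPKM, and the mannosidase gene ams1 12.8, 62.5 and, at 6 h, 184 RPKM. Both passed the rule at 0 h as deposited and not after rescaling, while within the course ams1 passed it after rescaling alone (2.29 at 6 h). The other hydrolase gene that rose within the course after rescaling alone was ape2 (2.08 at 6 h).

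None of 14 genes of the vacuolar proton pump and none of 9 of the TORC1 kinase, which represses autophagy, and its regulators passed the rule at 0 h or within the course in either scaling. At the shares of all genes just given, lists of this size hold few or no called genes, so these counts set neither list apart. Their median changes at 0 h were 0.22 and 0.88, where all genes had 0.54. Of 5 measured vacuolar amino acid transporter genes 0 rose and 1 fell, namely fnx1, with 45.6 RPKM to start and 7.58 RPKM by 6 h, and 0 fell after rescaling. With 5 genes this is near the shares of all genes, 7.79% and 13.5%.

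Counting is uncertain where genes overlap, since the sources used here do not say whether strand was used. In the reference annotation 23 of the 24 genes overlap a gene on the opposite strand, 13 of them a protein-coding one. The gene mde4 overlaps 73.3% of atg7 and had 10.9 RPKM to start, 13.4 RPKM by 3 h, 32.2 RPKM by 6 h and 11.9 RPKM in the end, high where atg7 was lowest. The gene rio1 overlaps 46.7% of atg17 and read 35.0 RPKM at 2 h, where atg17 was highest. Annotated noncoding RNAs lie opposite to 76.0% of atg8, 61.1% of atg24 and 100% of atg101, and their levels were not analysed here. The part of these overlaps in the values given was not tested.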

How the data were processed

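The authors deposited RPKM values for 5157 genes in 10 total RNA libraries, per the file headers, and columns named TPM. Within a library the deposited TPM columns are not proportional to RPKM, so they were treated as a score and used only to find relative read totals. From these every RPKM value was turned back into whole reads (5157 of 5157 genes, relative tolerance 1e-11), which gave the exact Poisson and binomial intervals. The gene lengths used are those implied by the table. RNA was extracted with a MasterPure kit and libraries made with a stranded TruSeq kit, per the labels' protocols. For the whole series, the submitters' processing notes list STAR 2.7.3a and Bowtie 1.2.2 with bedtools 2.26.0 and 2.27.1, SAMtools 1.9, cutadapt 1.18 and bcl2fastq 1.17, with no role or order, and genome builds mm10 and ASM294v2. Not given in the sources used here are the counting tool, the annotation, the use of strand and the treatment of multiply mapping reads. The other samples of the series' 144 were not analysed here.

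Changes are differences of log2(RPKM + 1), called at 4-fold with 5 RPKM or more in at least 1 library compared, over all genes. The members, gene lists and rules were chosen with earlier results of these data known. Every atg gene is named, the stage markers too, and of the other lists those members that passed the rule at 0 h against mitosis or within the course, at most 4 a list. Names, synonyms and overlaps came from a RefSeq annotation of another build (ASM294v3) than the one listed for the counts (ASM294v2). Its gene coordinates and strands were used for the overlaps alone. Promoter sequences were not analysed here. Alternatives were pseudocounts of 0.1 and 5, median ratio rescaling, no filter or one of 20 RPKM, a 2-fold rule, each hour left out, mitosis as the reference, a 3-point running mean and, added after seeing the data, scaling to the same sum of RPKM. The recovery of reads was tested on simulated data. Calculations used SciPy 1.17.1, NumPy 2.4.6 and pandas 2.3.3 under Python 3.11.15, and figures matplotlib 3.10.9.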

Additional observations from a re-analysis of the deposited data

How the results depend on the processing

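No paired analysis was possible because each stage has 1 library. No value changed direction among the called ones. The counts that moved by over 1.5 times were as follows. Genes higher at 0 h than in mitosis numbered 8, 22 at a 2-fold rule, 3 after median ratio rescaling, 5 with a pseudocount of 5 and 16 with the same sum of RPKM. Genes higher than 0 h at some hour numbered 2, 6 at 2-fold, 4 after rescaling and 12 against mitosis. Genes lower numbered 3, and 9, 1 and 0 under these settings. Pairs of a gene and an hour past the rule against 0 h numbered 5 higher and 7 lower, 17 and 30 at 2-fold, 10 and 2 after rescaling, and 3 higher with the same sum. Genes highest at 0 h numbered 7, and 3 after rescaling. Genes higher at 8 h than in mitosis numbered 7, and 20 at 2-fold. With any 1 hour left out, 2 genes rose, and 2 to 3 fell (2 without 6 h, the one hour at which atg20 passes). The cause of these shifts was not tested, beyond the 2-fold rule asking for less. Depth was no limit for these genes, the lowest of which had 180 reads, but without replicate cultures the spread between cultures is unknown. Against 0 h at 8 h, 5 genes changed sign after rescaling and 2 with the same sum of RPKM.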
